A study of Mus musculus with 6 samples.

Results

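The 10 genes that encode the enzymes of de novo purine synthesis were examined in RNA sequencing data of immortalized mouse embryonic fibroblasts (MEFs) with and without YME1L, a protease anchored in the inner membrane of mitochondria that needs ATP. The genes were taken by name (Ppat, Gart, Pfas, Paics, Adsl, Atic, Impdh1, Impdh2, Gmps and Adss) from the 51499 loci of the deposited count table. Each was found as a locus of its own, and all 10 were among the 13867 loci with enough counts to be tested. The comparison asks how the transcripts of this pathway differ between WT and Yme1l-/- cells.

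Both genotypes were SV40-immortalized MEFs from mice with floxed Yme1l alleles, and WT cells were Yme1l fl/fl, that is, they carried the floxed alleles undeleted. Both kinds of clone were found after transduction with Cre recombinase, and Yme1l-/- cells had lost the gene. According to the study's methods, clones were grown up singly and then genotyped, but how many clones the cultures of a genotype came from is not given in the sources used here. Genotype and differences between clones therefore cannot be told apart. There were 3 independent cultures per genotype, none with a further treatment.

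Cells make the purine ring stepwise on the sugar phosphate PRPP, with nitrogen from glutamine, glycine and aspartate and with formyl groups carried by folate. The product is IMP, from which separate branches lead to AMP and to GMP. Several of the enzymes carry out more than a single step, and dividing cells draw on this route for DNA, RNA and energy carriers. When purine bases are at hand, salvage enzymes join them to PRPP and bypass the route.

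Library totals were 33180867 to 34012520 fragments in WT and 34624075 to 49351107 in Yme1l-/-, and single members had between 3121 and 18445 fragments in a library. Yme1l1, the targeted gene, was at 183 to 192 CPM (counts scaled to a library of 1000000 fragments) in WT and kept 20.7% of that level in Yme1l-/- (log2 fold change -2.27 ± 0.05, SE, edgeR adjusted p = 2.43e-11). Of the fibroblast markers, Col1a1, Col1a2, Col3a1, Vim, Fn1, Pdgfra and Pdgfrb were present in both genotypes, whereas Thy1 had at most 6 fragments in any library. Of the 7 tested, 5 were lower and 1 was higher in Yme1l-/-, and the summed level of the list was 10800 to 11400 CPM in WT and 6650 to 7130 CPM in Yme1l-/-. The summed epithelial markers, mostly Krt19 and Krt18, were at 142 to 159 CPM in WT and 2.75 to 3.69 CPM in Yme1l-/-, and Epcam had 50, 42 and 35 fragments in WT and 2, 5 and 5 in Yme1l-/-, while Cdh1 and Krt8 had at most 12 and 15 fragments in any library. Blood cell markers summed to 1.89 to 2.11 CPM in WT and 3.77 to 4.18 CPM in Yme1l-/-. Endothelial markers summed to 0.888 to 1.44 CPM in WT and 1.67 to 2.0 CPM in Yme1l-/-. The only tested gene of each list, Cd68 and Kdr, was called higher in Yme1l-/-. The part of these differences in the results below was not tested, and in bulk RNA fewer cells of a kind and less RNA per cell cannot be told apart. Across all loci tested, 67.7% differed between the genotypes at an edgeR adjusted p under 0.05, 33.6% higher and 34.1% lower in Yme1l-/-, with a median log2 fold change of -0.0041.

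Promoter windows were read first for letters bound by known regulators of the pathway. RefSeq (GRCm38.p6) gave windows of 300 bases, from 250 bases before to 50 bases after the start, for 9 of the 10 genes, with 2 windows for Impdh1. Pfas was not among them. The E-box CACGTG, a site of MYC and related factors that reads the same on both strands, was found in the windows of Paics, Atic and Impdh2, against 7.15% of 32851 windows of all genes. It began 203 bases before the RefSeq start in Paics, 7 bases before it in Atic and 110 bases before it in Impdh2. The GENCODE annotation starts Impdh2 further upstream, at 108560286, so that the E-box lies after that start. Neither TTGCATCA, a letter pattern of ATF4 with C/EBP partners (held by 0.895% of windows), nor the palindromic NRF1 motif (held by 0.971%) was among the letters of these windows on either strand, and the motifs do not overlap each other. A match is a description of the letters and does not show binding. The windows with an E-box are printed together with those of Ppat, which is transcribed away from Paics across the same start region, and of Adsl, a gene without these letters that had one of the larger differences. They are written 5′ to 3′ along the gene's strand with the E-box in capitals. Their GRCm38 positions are chr5:76951052-76951351 on the plus strand for Paics, chr1:71556906-71557205 on the plus strand for Atic, chr9:108560186-108560485 on the plus strand for Impdh2, chr5:76951529-76951828 on the minus strand for Ppat and chr15:80948240-80948539 on the plus strand for Adsl.
Paics: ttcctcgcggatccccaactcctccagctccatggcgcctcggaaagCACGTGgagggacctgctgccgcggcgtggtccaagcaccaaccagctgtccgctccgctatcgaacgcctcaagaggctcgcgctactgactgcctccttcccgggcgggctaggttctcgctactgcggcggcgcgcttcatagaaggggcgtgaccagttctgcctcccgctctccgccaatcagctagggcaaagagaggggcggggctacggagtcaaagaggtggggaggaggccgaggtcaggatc
Atic: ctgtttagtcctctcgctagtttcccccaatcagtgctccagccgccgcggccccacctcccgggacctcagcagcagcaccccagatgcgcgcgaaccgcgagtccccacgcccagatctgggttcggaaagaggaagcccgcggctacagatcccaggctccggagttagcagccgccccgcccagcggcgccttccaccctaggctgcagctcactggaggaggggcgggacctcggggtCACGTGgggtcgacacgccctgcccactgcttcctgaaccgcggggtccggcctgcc
Impdh2: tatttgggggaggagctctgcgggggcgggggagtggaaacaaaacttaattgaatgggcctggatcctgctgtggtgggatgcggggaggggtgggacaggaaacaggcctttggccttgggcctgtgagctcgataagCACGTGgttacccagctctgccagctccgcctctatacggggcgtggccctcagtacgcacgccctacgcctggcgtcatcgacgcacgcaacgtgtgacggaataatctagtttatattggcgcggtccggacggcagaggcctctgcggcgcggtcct
Ppat: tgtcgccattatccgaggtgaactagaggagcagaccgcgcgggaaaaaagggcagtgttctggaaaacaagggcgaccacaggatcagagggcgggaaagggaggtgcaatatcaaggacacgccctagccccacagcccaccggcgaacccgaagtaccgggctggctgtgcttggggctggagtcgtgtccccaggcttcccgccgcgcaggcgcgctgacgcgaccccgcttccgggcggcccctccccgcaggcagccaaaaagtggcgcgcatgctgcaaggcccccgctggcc
Adsl: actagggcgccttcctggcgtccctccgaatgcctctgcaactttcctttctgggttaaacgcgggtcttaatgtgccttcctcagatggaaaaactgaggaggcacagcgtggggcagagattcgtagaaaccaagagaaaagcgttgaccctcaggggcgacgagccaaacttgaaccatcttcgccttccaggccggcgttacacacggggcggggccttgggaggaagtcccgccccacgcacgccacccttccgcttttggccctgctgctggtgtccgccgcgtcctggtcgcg

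Of the 10 members, 9 were called by edgeR at an adjusted p under 0.05, and 67.7% of all loci were. Pfas, Adsl and Impdh1 were higher in Yme1l-/- (33.6% of all loci were higher), and Gart, Paics, Atic, Impdh2, Gmps and Adss were lower (34.1% of all loci were lower). The members therefore went both ways, with a median log2 fold change of -0.14 beside -0.0041 for all loci. The WT and Yme1l-/- libraries did not overlap for the same 9 genes, as for 71.9% of all loci. Changes were small. The largest among members, that of Pfas, was 1.67-fold, whereas 17.7% of all loci were called with a change of at least 2-fold.

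**Figure D1:**
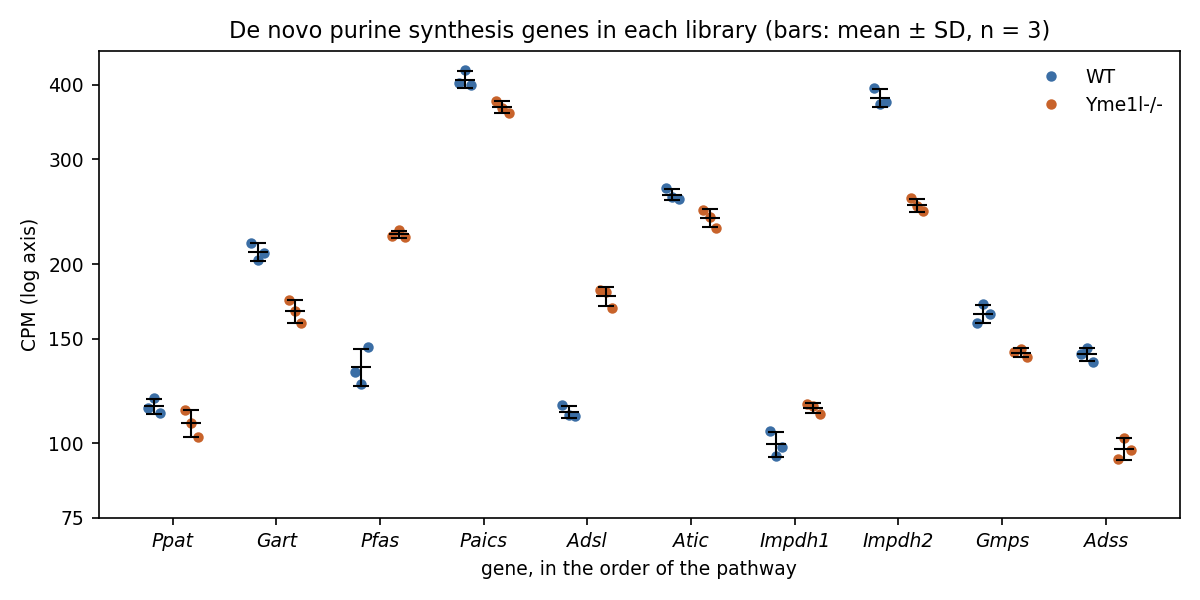
CPM (log axis) of the 10 genes in each library, in the order of the pathway; points are single cultures (blue, WT; orange, Yme1l-/-) and bars are mean ± SD of 3 cultures. Of these genes only Ppat has overlapping genotypes. Pfas, Adsl and Impdh1 lie higher in Yme1l-/-, and Gart, Paics, Atic, Impdh2, Gmps and Adss lie lower.

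Each gene's surroundings were set beside it, since the median log2 fold change differed between chromosomes, from 0.59 on chromosome 15 to -0.36 on chromosome 9 among those that carry a member. For every locus the median log2 fold change of the 25 nearest tested loci on each side was taken as the local median. The fold change of 7 of the 10 members lay within 0.1 of the local median on the log2 scale, namely Ppat, Pfas, Paics, Adsl, Atic, Impdh1 and Gmps. Of all loci with a local median, 18.6% lay that close, and the distance of 0.1 was chosen after the values were seen. With the local medians removed from the fit, an alternative also chosen after seeing the data, edgeR called 3 members, Gart, Impdh2 and Adss, each lower in Yme1l-/-, whereas 62.1% of all loci were still called. With each chromosome's median removed, 6 members were called and 62.8% of all loci were. Of the 6, Pfas was higher (31.1% of all loci) and Gart, Paics, Impdh1, Impdh2 and Adss were lower (31.7% of all loci). Whether the regional differences stem from the loss of YME1L or from the clones cannot be told apart.

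**Figure D2:**
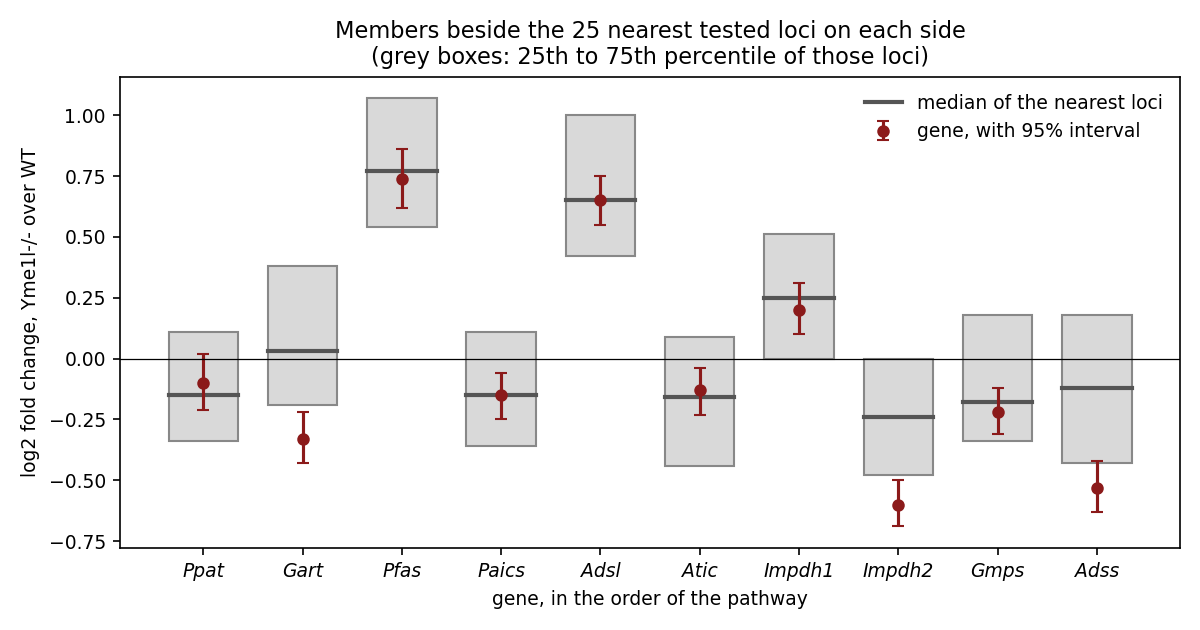
Log2 fold change (Yme1l-/- over WT) of each gene with its 95% interval (red) over the middle part (25th to 75th percentile, grey box) and median (line) of its 50 nearest tested loci. Gart, Impdh2 and Adss lie below the boxes of their neighbours, and the other 7 genes lie close to the line.

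The enzyme of the committed step, the amidotransferase that puts the first nitrogen on PRPP, is encoded by Ppat. Its transcript was at 115, 119 and 113 CPM in the WT libraries and at 114, 108 and 103 CPM in the Yme1l-/- libraries (replicates 1 to 3). These ranges overlapped. The log2 fold change was -0.10 ± 0.05 (SE), with a 95% interval of -0.21 to 0.02 and an edgeR adjusted p of 0.117, so a decrease of up to 0.21 is within the error. Without Yme1l-/- replicate 1, Ppat was called lower, at -0.13 with an edgeR adjusted p of 0.0317, and over the 16 alternatives the adjusted p lay between 0.0317 and 0.554.

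Paics encodes the bifunctional enzyme that adds a carboxyl group and then aspartate to the growing ring. It lies head to head with Ppat on chromosome 5. In the GENCODE annotation of GRCm38, Ppat spans 76913249 to 76951578 on the minus strand and Paics 76951307 to 76967509 on the plus strand, so that they share 272 bases at their starts, and the deposited table gives both the joint span of 76913249 to 76967509. The libraries were stranded, but whether the counting used the strand is not given in the sources used here, and the fragments of these 272 bases cannot be assigned with certainty. Paics was at 402, 423 and 399 CPM in WT and at 376, 366 and 359 CPM in Yme1l-/-. Every Yme1l-/- library was below every WT library, by a log2 fold change of -0.15 ± 0.04 (SE, edgeR adjusted p = 0.00867). That call was lost under upper-quartile scaling (-0.09, edgeR adjusted p = 0.0786), and the value was 0.00 with the local median removed (edgeR adjusted p = 0.984), the adjusted p ranging from 0.0025 to 0.984 over the alternatives. Processed pseudogenes resemble Paics over part of its transcript, Gm19241 with 91.2% identity over 904 bases and Gm4797 with 90% over 1285 bases.

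The Ppat to Paics ratio was computed within each library, where no scaling enters. The counts stood at 0.285, 0.281 and 0.282 in WT and at 0.303, 0.296 and 0.285 in Yme1l-/-. The ratio differed by 0.06 on the log2 scale, and an exact two-sided permutation test gave p = 0.2, where 0.1 is the smallest value that 3 against 3 cultures allow.

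Gart and Pfas encode enzymes of the early ring-building steps. GART is a multifunctional protein that joins glycine to the chain, takes up a formyl group from folate and closes the smaller ring, while PFAS brings in nitrogen from glutamine. Gart (chromosome 16, 91621186 to 91646952 in GENCODE, where the deposited locus starts at 91611468) was at 217, 203 and 208 CPM in WT and at 174, 167 and 159 CPM in Yme1l-/-. The highest Yme1l-/- library was below the lowest WT library. Its log2 fold change was -0.33 ± 0.05 (SE, edgeR adjusted p = 7.96e-05), and it was called lower in all 16 alternatives. Its neighbours were split, 27 above 0 and 23 below, with a local median of 0.03, and 42 of the 50 nearest loci had a higher fold change than Gart. With the local median removed the value was -0.36 (edgeR adjusted p = 5.06e-05; 7.71e-09 to 0.000644 over the alternatives). An antisense gene, Gm15964, shares 291 bases with the Gart transcript.

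Pfas (chromosome 11, 68985697 to 69008460) had the highest fold change of the pathway. It was at 132, 126 and 145 CPM in WT and at 223, 228 and 222 CPM in Yme1l-/-. The lowest Yme1l-/- library was well above the highest WT library. The log2 fold change was 0.74 ± 0.05 (SE, edgeR adjusted p = 2.91e-07). The 50 nearest loci had a median of 0.77, with 44 of them above 0, and 25 were below Pfas. Removal of the chromosome median left Pfas higher at 0.38, and removal of the local median left -0.03 (edgeR adjusted p = 0.622; 6.29e-33 to 0.622 over the alternatives).

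Adsl encodes adenylosuccinate lyase, which releases fumarate once on the way to IMP and again on the branch to AMP. Its transcript (chromosome 15, 80948490 to 80970946) was at 116, 112 and 111 CPM in WT and at 181, 180 and 169 CPM in Yme1l-/-. The genotypes did not overlap, and the level in Yme1l-/- was 1.56-fold that in WT (log2 fold change 0.65 ± 0.05, SE, edgeR adjusted p = 2.63e-07). Of its 50 nearest loci 47 had a fold change above 0, and the local median was 0.65, the same as Adsl to 2 decimals. The call was lost with the chromosome median removed, at 0.05 (edgeR adjusted p = 0.326), and with the local median removed, at 0.00 (edgeR adjusted p = 0.973; 9.15e-31 to 0.973 over the alternatives).

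Atic encodes the bifunctional enzyme of the last steps to IMP, the second of the pathway that takes a formyl group from folate. It was at 268, 259 and 258 CPM in WT and at 247, 240.0 and 230.2 CPM in Yme1l-/- (chromosome 1, 71557150 to 71579631). The libraries did not overlap, but the distance was small, with a log2 fold change of -0.13 ± 0.04 (SE, edgeR adjusted p = 0.019). The call was lost under upper-quartile scaling and without WT replicate 1, Yme1l-/- replicate 2 or Yme1l-/- replicate 3 (log2 fold change -0.07, -0.12, -0.13 and -0.10). With the chromosome median removed the value was 0.02, and with the local median removed it was 0.03, with edgeR adjusted p-values of 0.649 and 0.569 in a range of 0.00493 to 0.649.

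The branch to GMP starts with IMP dehydrogenase, of which there are isozymes encoded by Impdh1 and Impdh2. IMPDH2 is the form known to be raised in dividing cells. Impdh2 was at 395, 371 and 375 CPM in the WT libraries and at 258, 250.3 and 246 CPM in the Yme1l-/- libraries. Every Yme1l-/- library was below every WT library, so that Yme1l-/- cells kept 66.1% of the WT level. The log2 fold change of -0.60 ± 0.04 (SE, edgeR adjusted p = 3.4e-07) was the lowest among the members, and it was called in all 16 alternatives. Impdh2 lies on chromosome 9 (108560286 to 108565584, with a deposited locus that ends at 108567434), and 38 of the 50 nearest loci had a fold change below 0 and the local median was -0.24. With that median removed Impdh2 was at -0.35 (edgeR adjusted p = 3.2e-05), and with the chromosome median removed at -0.24 (edgeR adjusted p = 0.000597; 3.35e-32 to 0.000597 over the alternatives).

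Reads of Impdh2 can be exchanged with a near-identical copy. The processed pseudogene Impdh2-ps (chromosome 8, 100030558 to 100032102) matches 1545 of the 1858 bases of the Impdh2 transcript with 99.7% identity. It had 4105, 3861 and 3788 fragments in WT and 2849, 4043 and 4125 in Yme1l-/-, a log2 fold change of -0.56 ± 0.04 (SE). The Impdh2 to Impdh2-ps ratio was 3.18, 3.14 and 3.23 in WT and 3.17, 3.12 and 3.03 in Yme1l-/-, so the ranges overlapped. Counted as 1 locus, the pair had a log2 fold change of -0.59. The values cannot say how many fragments came from either gene.

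Impdh1 was at 105, 95.3 and 98.7 CPM in WT and at 116, 115 and 112 CPM in Yme1l-/- (chromosome 6, 29200434 to 29216364). The lowest Yme1l-/- library lay above the highest WT library, and the log2 fold change was 0.20 ± 0.05 (SE, edgeR adjusted p = 0.00306). Its direction depended on the surroundings. The local median was 0.25 and the chromosome median 0.34. With the chromosome median removed Impdh1 was called lower, at -0.14 (edgeR adjusted p = 0.0267), and with the local median removed it was at -0.04 (edgeR adjusted p = 0.446; 0.000474 to 0.446 over the alternatives).

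Within libraries the Impdh2 to Impdh1 ratio of counts was 3.76, 3.89 and 3.80 in WT and 2.22, 2.17 and 2.19 in Yme1l-/-. The lowest WT ratio was far above the highest Yme1l-/- ratio. On average it went from 3.82 ± 0.0652 to 2.19 ± 0.0263 (SD, n = 3), a difference of -0.80 on the log2 scale. The exact two-sided permutation test gave p = 0.1, the smallest value that this design allows. The difference was smaller relative to the surroundings of these genes, at -0.10 with the chromosome medians of both genes taken from it and at -0.31 with their local medians taken from it, without overlap of the genotypes in either case. These adjustments of the ratio were chosen after seeing the data.

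**Figure D3:**
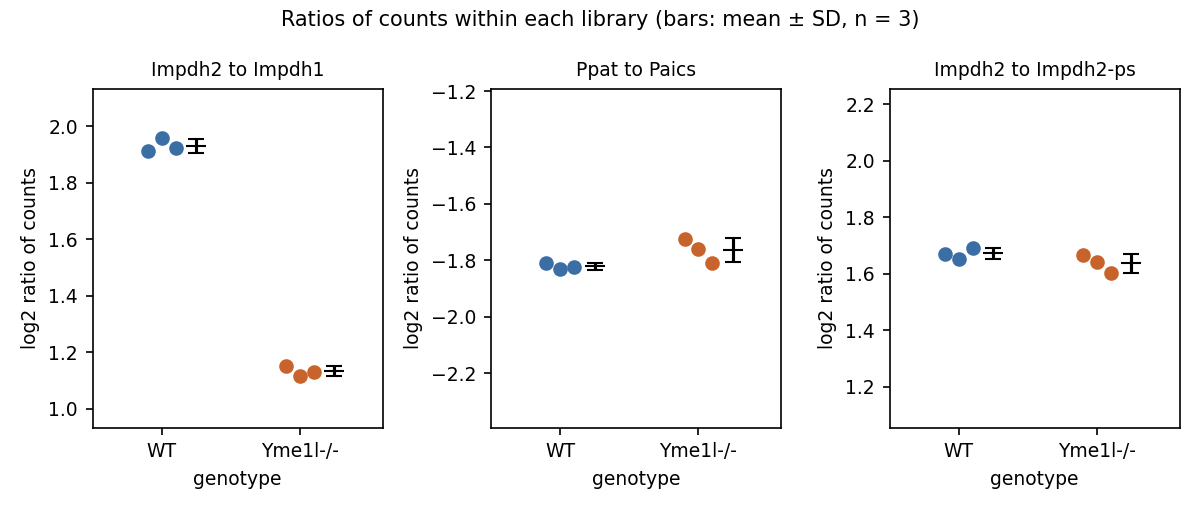
Log2 ratio of counts of gene pairs within each library (points, single cultures; bars, mean ± SD, n = 3; each panel spans the same range). The Impdh2 to Impdh1 ratio falls from 1.93 in WT to 1.13 in Yme1l-/- (a difference of -0.80, which is -0.10 with chromosome medians and -0.31 with local medians taken from it), whereas the Ppat to Paics and Impdh2 to Impdh2-ps ratios overlap between genotypes.

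Gmps encodes GMP synthetase, which completes the branch to GMP with nitrogen from glutamine. It was at 159, 171 and 165 CPM in WT and at 143, 144 and 140 CPM in Yme1l-/- (chromosome 3, 63976106 to 64022579). All Yme1l-/- libraries were below the WT libraries, with a log2 fold change of -0.22 ± 0.04 (SE, edgeR adjusted p = 0.000953). The local median was -0.18 and the chromosome median -0.12, and the call was lost with either removed, at -0.04 (edgeR adjusted p = 0.497) and -0.10 (edgeR adjusted p = 0.0741; 6.78e-05 to 0.497 over the alternatives). The unprocessed pseudogenes Gm20656 and Gm20657 resemble 276 of the 8105 bases of its transcript.

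Adss encodes adenylosuccinate synthetase, which opens the branch to AMP with aspartate. Its transcript (chromosome 1, 177762962 to 177796511) was at 141, 145 and 137 CPM in WT and at 94.2, 102 and 97.4 CPM in Yme1l-/-. The libraries were clearly apart, and Yme1l-/- cells kept 69.4% of the WT level (log2 fold change -0.53 ± 0.05, SE, edgeR adjusted p = 2.03e-06). The local median was -0.12, and 44 of the 50 nearest loci had a higher fold change. With it removed Adss was at -0.40 (edgeR adjusted p = 2.3e-05), and Adss was called lower in all 16 alternatives, with adjusted p-values from 8.79e-20 to 4.39e-05. Adssl1, the muscle isozyme of the same step, was near the limit of counting, with 28, 34 and 31 fragments in WT and 13, 37 and 22 in Yme1l-/-. The raw counts overlapped, while the scaled levels did not, with 0.846 to 1.04 CPM in WT and 0.372 to 0.734 CPM in Yme1l-/-. Its log2 fold change was -0.85 ± 0.29 (SE, edgeR adjusted p = 0.0228), and 6 of the 16 alternatives did not call it, among them the omission of WT replicate 2 or 3 or of Yme1l-/- replicate 1 or 3 (-0.69 without Yme1l-/- replicate 1), with adjusted p-values from 0.00565 to 0.239.

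Levels of different members were compared per length, as CPM per kilobase of annotated exon. In WT, Paics (130.0 ± 4.19, SD, n = 3) and Impdh2 (124 ± 4.13) led, with library ranges that overlapped. The Impdh2 levels leave out fragments counted for Impdh2-ps (means of 119 CPM in WT and 80.85 CPM in Yme1l-/-). The order of Paics and Impdh2 in WT may therefore depend on how those fragments are assigned. Gart followed at 40.7 ± 1.39, then Atic at 32.8 ± 0.728, Adss at 31.1 ± 0.837 and Impdh1 at 30.2 ± 1.46, of which Adss and Impdh1 overlapped. Lower still were Ppat (26.1 ± 0.736), Gmps (20.4 ± 0.737) and Adsl (20.0 ± 0.476), the last pair overlapping, and Pfas was the lowest at 16.9 ± 1.22. In Yme1l-/- the order of the same per-length levels was Paics (117 ± 2.62), Impdh2 (81.7 ± 2.06), Impdh1 (34.8 ± 0.649), Gart (32.4 ± 1.47), Adsl (31.3 ± 1.18), Atic (29.9 ± 1.05), Pfas (28.3 ± 0.399), Ppat (24.5 ± 1.27), Adss (21.6 ± 0.899) and Gmps (17.5 ± 0.294). Among these, Gart overlapped Adsl and Adsl overlapped Atic. Adss thus went from place 5 to place 9 and Adsl from place 9 to place 5. The authors' combined FPKM values, which weigh the transcripts of a gene and have no replicate error, placed Impdh2 (240 in WT, 157 in Yme1l-/-) and Paics (210 in WT, 191 in Yme1l-/-) ahead of the others as well. By FPKM the moves were smaller, with Adss in place 6 in WT and place 8 in Yme1l-/- and Adsl in places 4 and 3. The FPKM values also placed Gmps (20.0) below Pfas (24.0) in WT, so these places depend on the length used.

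The genes around the pathway were described from lists of its suppliers, bypasses and users. PRPP, on which the ring is built, is made by PRPP synthetases and their associated proteins. Of 4 tested genes 3 were called (67.7% of all loci). Prpsap2 and Prpsap1 were higher (log2 fold change 0.69 ± 0.06 and 0.27 ± 0.06, SE), Prps2 was lower (-0.38 ± 0.05, SE) and Prps1 was not called (-0.13 ± 0.06, SE). Their median was 0.07. With local medians removed Prpsap2 was at 0.24 and still called, whereas Prpsap1 was at -0.05 and not called (edgeR adjusted p = 0.467; 1.47e-05 to 0.467 over the alternatives), and with chromosome medians removed Prpsap1 was at -0.09 and not called either. In the salvage list Hprt and Adk were tested. Hprt, which salvages hypoxanthine and guanine, was at 111, 106 and 105 CPM in WT and at 84.9, 85.6 and 86.4 CPM in Yme1l-/-, a log2 fold change of -0.32 ± 0.04 (SE, edgeR adjusted p = 5.16e-05). Adk, the adenosine kinase gene, was at -0.28 ± 0.06 (SE), and both were called lower (34.1% of all loci). With the local medians removed Hprt was still called (-0.16) and Adk was not (-0.11, edgeR adjusted p = 0.116; 1.55e-06 to 0.116 over the alternatives). Aprt, also in that list, was not found as a locus and has no values here.

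Formyl groups reach GART and ATIC from serine through the folate enzymes. Of 9 tested loci of this supply, 5 were higher and 3 were lower, where 33.6% and 34.1% of all loci were. The median log2 fold change was 0.40, beside -0.0041 for all loci, and it was 0.13 with chromosome medians removed and 0.06 with local medians removed. Aldh1l2, which encodes the mitochondrial enzyme that oxidizes formyl-folate to CO2, was at 40.7, 45.5 and 46.4 CPM in WT and at 216, 232 and 226 CPM in Yme1l-/-. The genotypes were far apart, with a log2 fold change of 2.35 ± 0.06 (SE, edgeR adjusted p = 8.77e-11). The mitochondrial serine hydroxymethyltransferase gene Shmt2 rose by 1.14 ± 0.05, the mitochondrial dehydrogenase gene Mthfd2 by 0.92 ± 0.04 and Mthfd1l by 0.40 ± 0.05 (log2 fold change ± SE). Of the cytosolic enzymes, Mthfd1, which makes the formyl-folate that the pathway uses, was lower (-0.30 ± 0.04, SE) but was called higher with chromosome medians removed (0.13, edgeR adjusted p = 0.0174; 4.92e-09 to 0.285 over the alternatives), and Shmt1 was not called (0.08 ± 0.05, SE). Mthfd2l was also lower (-0.46 ± 0.06, SE), as was a locus that merges Mthfs with Bcl2a1b and Gm29094 (-1.42 ± 0.27, SE), with 39, 41 and 32 fragments in WT and 20, 17 and 20 in Yme1l-/-. The counts of that locus cannot be divided among its genes. With local medians removed, Aldh1l2, Shmt2 and Mthfd2 were still called higher (2.18, 0.65 and 0.53), whereas Mthfd1l (-0.03) and Mthfd1 (0.06) were not called and Shmt1 was called lower (-0.38).

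Among 14 tested loci of purine interconversion and breakdown, 8 were higher and 4 were lower (33.6% and 34.1% of all loci), with a median of 0.36. Ampd3, an AMP deaminase gene, was at 3.66, 3.73 and 3.31 CPM in WT and at 11.3, 11.3 and 11.2 CPM in Yme1l-/-, a log2 fold change of 1.66 ± 0.10 (SE). Gmpr, the GMP reductase gene, was at 2.78, 3.64 and 2.85 CPM in WT and at 8.52, 8.15 and 8.09 CPM in Yme1l-/- (1.42 ± 0.12, SE), and in neither gene did the genotypes overlap. Their paralogs were lower. Ampd2 went from a mean of 113 to 79.9 CPM (-0.50 ± 0.05, SE) and Gmpr2 from 28.6 to 18.6 CPM (-0.62 ± 0.06, SE). Ada, which deaminates adenosine, rose by 1.3 ± 0.09 and Xdh, which makes uric acid, by 1.31 ± 0.22 (log2 fold change ± SE). The kinase genes Guk1 (1.09 ± 0.07) and Ak1 (1.07 ± 0.07) and the nucleotidase gene Nt5c2 (0.47 ± 0.05) were higher as well. With local medians removed Guk1 was at 0.46, Ak1 at 1.06 and Nt5c2 at 0.31, and each was still called. Nt5e, the cell-surface nucleotidase that releases adenosine, had 435, 437 and 360 fragments in WT and 14, 25 and 30 in Yme1l-/-, a log2 fold change of -4.63 ± 0.16 (SE, edgeR adjusted p = 7.48e-10). The 4 lower loci were Nt5e, Ampd2, Gmpr2 and Adssl1. Itpa and the merged locus Pnp,Pnp2 were not called, although Pnp,Pnp2 was called higher with chromosome medians removed (0.19, edgeR adjusted p = 0.0263) and with local medians removed (0.23, edgeR adjusted p = 0.0095; 0.0095 to 0.971 over the alternatives).

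In the parallel pathway of de novo pyrimidine synthesis, 1 of 5 genes was called (67.7% of all loci), Dhodh at -0.27 ± 0.08 (SE), and the median was 0.00. Dhodh was not called without Yme1l-/- replicate 3 (-0.20), nor with chromosome medians (0.05) or local medians (0.05) removed. Ctps and Ctps2 were called higher with chromosome medians removed (0.18 and 0.19), where 62.8% of all loci were called. They were also called higher with local medians removed (0.19 and 0.28), where 62.1% of all loci were called. Of the regulators, Atf4 was higher (0.99 ± 0.05, SE), Myc was lower at -0.17 ± 0.06 (SE, edgeR adjusted p = 0.0378) with libraries that overlapped, and Nrf1 was not called (-0.08 ± 0.04, SE). Atf4 and Myc lie on chromosome 15, and with its median removed they were at 0.40 and -0.76, both called. The call of Myc was lost in 5 of the 16 alternatives, upper-quartile scaling and the omission of WT replicate 1 or 2 or of Yme1l-/- replicate 2 or 3 (-0.12 without the last, edgeR adjusted p 1.7e-06 to 0.164 over all), and Nrf1 was called lower with its chromosome median removed, at -0.43. Among 13 proliferation markers, 5 were higher and 3 were lower (33.6% and 34.1% of all loci), with a median of 0.09. With local medians removed 6 were higher and 6 were lower, where 62.1% of all 13867 loci were called, 4193 higher and 4416 lower. Before this removal Mki67 (-0.76) and Rrm2 (-0.66) had the lowest log2 fold changes of these markers and Mcm2 (0.73) the highest. With local medians removed these genes were at -0.59, -0.21 and 0.28. Top2a (-0.37) and Ccnb1 (-0.31) then lay below Rrm2, and Mcm5 (0.41), Mcm3 (0.39) and Mcm6 (0.37) lay above Mcm2. Mki67 and Rrm2 were called lower in all 16 alternatives. The part of the markers in the results was not tested.

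**Figure D4:**
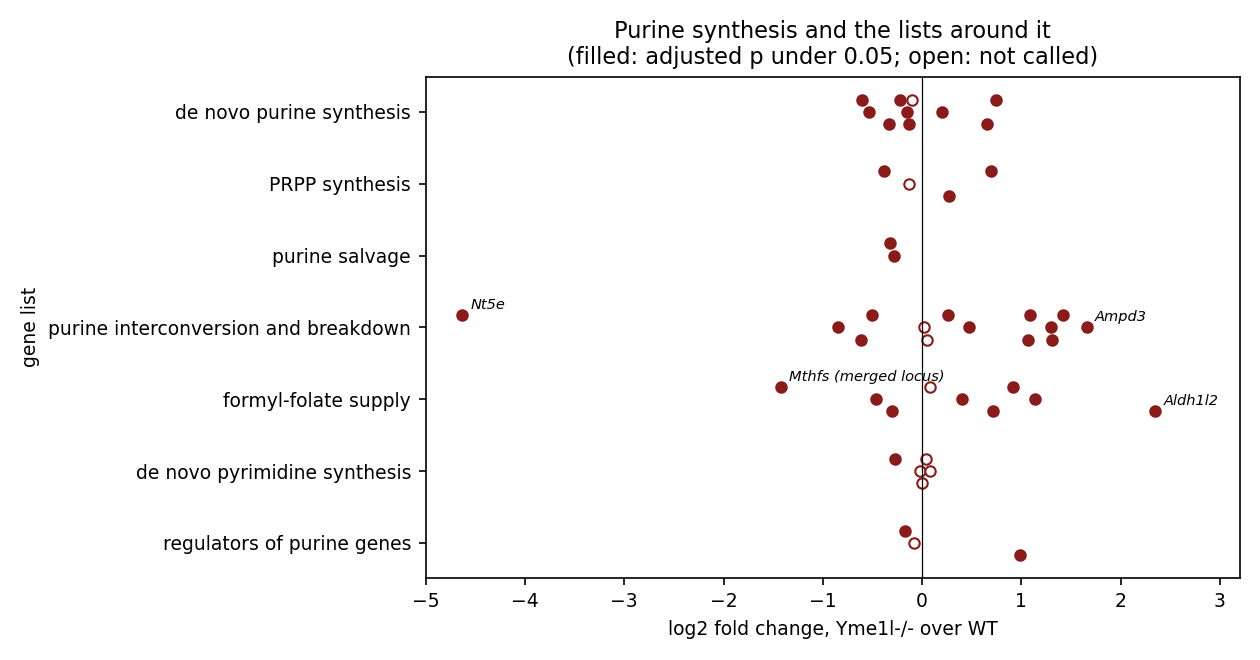
Log2 fold change (Yme1l-/- over WT) of each tested gene of the pathway and of the lists around it (filled, edgeR adjusted p under 0.05; open, not called; points are spread vertically within a list for legibility). Purine synthesis genes lie between -0.60 and 0.74, while Aldh1l2 at 2.35 and Nt5e at -4.63 lie at the ends of the range.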

How the data were processed

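Poly(A)-selected RNA of 3 WT and 3 Yme1l-/- MEF cultures was sequenced from stranded libraries. The authors mapped read pairs to mm10 (GRCm38, Ensembl 91) with HISAT2 2.0.4, assembled transcripts with StringTie 1.3.3 and compared genotypes with Cuffdiff 2.2.1. The deposited counts are raw fragment counts per assembled locus, without normalization, and how multiply mapped fragments were counted is not given in the sources used here. The authors' FPKM is 1 combined value per genotype. The deposited fold changes, p-values and q-values of the authors' comparison were not used. Columns were matched to samples by genotype and replicate number. The count columns taken as WT carry the label WT2, whereas the samples are titled WT.

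Loci passing filterByExpr (minimum count 10) were compared in R 4.3.3 with edgeR 4.0.16 (TMM, robust quasi-likelihood fit, two-sided, no covariates). P-values were adjusted by the Benjamini-Hochberg procedure across the 13867 loci, and adjusted p under 0.05 was a call. On simulated counts of this comparison (13703 loci), the test called 94% of loci raised 2-fold, 100% of those lowered 2-fold and 0.104% of unchanged loci. The simulation gave all loci the same spread between cultures and held only changes of at least 2-fold. It does not cover the smaller differences of the members. Overlapping transcripts were joined by the authors into loci with several names, 387 of them tested. Ratios were tested with scipy 1.17.1. Transcripts were matched with BLAST 2.17.0 (at least 90% identity over 200 bases) and gene models taken from GENCODE M21. For 45 tested loci no single position was found. The biological coefficient of variation was 8.47%. The 95% intervals are those of the fit, and fragments copied by PCR were not identified.

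Members and lists were chosen with earlier results of these data known. Related genes were named for a call with an absolute log2 fold change of at least 0.5 (at most 5 a list) or for acting on the same step or salvage (Adssl1, Hprt, Aprt), and other genes of the lists were named after their values were seen. A few genes in the lists enter the counts but are not given individually. Alternatives were RLE or upper-quartile scaling, DESeq2 1.42.0, other count filters, thinning to the smallest library, a replicate block, omission of each culture, and removal of chromosome medians. Removal of local medians and joining of Impdh2 with its pseudogene were chosen after seeing the data. Within a genotype the libraries differed beyond counting noise (chi-square per degree of freedom at least 8.54), and p-values measure only the spread between these cultures.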

Additional observations from a re-analysis of the deposited data

How the results depend on the processing

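Of 160 values of members under alternatives, 143 kept their direction and their side of the threshold, 14 lost the call, 1 gained it and 8 changed sign, 6 of which are among the lost calls. With the local medians removed (chosen after seeing the data), 3 members were called in place of 9, and 62.1% of all loci in place of 67.7%. The log2 fold changes that changed sign there were 0.0521 for Ppat, -0.0316 for Pfas, 0.00115 for Paics, -0.00194 for Adsl, 0.0298 for Atic and -0.0444 for Impdh1. With chromosome medians removed, 6 members and 62.8% of all loci were called, and Atic was at 0.0239 and Impdh1 at -0.139. The difference in the Impdh2 to Impdh1 ratio, -0.80 as reported, was -0.10 with chromosome medians and -0.31 with local medians taken from it. Under upper-quartile scaling 7 members and 67.6% of all loci were called. Of all calls 55.1% were then higher in place of 49.6%, and the median of all loci moved to 0.0552. Calls over all loci ranged from 8513 to 10051. Without any single culture, 8 to 10 members and 62.8% to 66.7% of all loci were called. Replicate numbers did not pair the cultures (correlations of same-numbered deviations 0.144, -0.094 and 0.048), and with the replicate block 9 members and 9794 loci (70.6%) were called. The cause of the changes under removal of local or chromosome medians was not tested. Members had at least 3121 fragments per library, and 9 were called also after all libraries were thinned to the smallest total (67.4% of all loci).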
